A study of Drosophila melanogaster with 35 samples.

Results

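Heads of flies that carried human Aβ42 in neurons together with glial TREM2R47H and TYROBP (Aβ42/TREM2R47H/TYROBP) were compared with heads of flies that carried Aβ42 alone (Aβ42), over all genes of the deposited table. The comparison set 3 libraries of each genotype against each other, 6 of the 35 libraries of the series, over all 14279 genes. The model was fitted over all 35 libraries of 12 genotypes, so the other genotypes supply most of the estimate of spread. The Aβ42/TREM2R47H/TYROBP flies had the neuronal driver elav-gal4 and the glial driver Repo-LexA on 1 chromosome over Y, with LexAop2-TREM2-R47H,TYROBP on the homologue of the UAS-Aβ42 chromosome. The Aβ42 flies had the same drivers over Y and UAS-Aβ42 over a chromosome without a construct (+). All were adult heads of age 1 week, pooled from many flies, and the RNA integrity numbers (RIN) were 6.9, 6.6 and 6.9 in Aβ42/TREM2R47H/TYROBP libraries 1, 2 and 3, and 6.8, 6.6 and 6.9 in Aβ42 libraries 1, 2 and 3. Further libraries used beside them were Aβ42/TREM2WT/TYROBP, TREM2R47H/TYROBP without Aβ42, and the elav-gal4, Repo-LexA control (3 libraries each). A second set carried Repo-LexA with the eye driver GMR-gal4 in place of elav-gal4 and served as other backgrounds: tau/TREM2R47H/TYROBP (UAS-Tau with the construct, 3 libraries), tau (2 libraries), TREM2R47H/TYROBP (3 libraries) and control (3 libraries), also heads of age 1 week. The construct-bearing chromosome and the + chromosome differ in more than the construct, so an effect of the chromosome and an effect of TREM2R47H/TYROBP cannot be told apart within this pair. The same holds below wherever flies with the construct are set against flies without it. The chromosomes with the R47H and the WT construct may also differ in more than the variant. Variant and chromosome thus cannot be told apart where the 2 forms are compared.

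TREM2 is a receptor of the mammalian microglial surface, and TYROBP (DAP12) is the adaptor through which it signals. The R47H variant of TREM2 raises the risk of Alzheimer's disease and weakens ligand binding. Flies have no microglia. Their glia, which express the transcription factor repo, clear neuronal debris, while humoral immunity rests largely on the fat body and on hemocytes, with peptides induced by the Toll and Imd pathways.

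The values were read counts scaled to the size of each library on a log2 scale (log2 CPM) that the authors had already adjusted for RIN, so read depth is unknown and no counting interval can be given. A gene was called a differentially expressed gene (DEG) when limma, with RIN as a covariate, gave a Benjamini-Hochberg adjusted p under 0.05 and the fold change was above 1.2. By this rule 469 genes were higher and 410 were lower in Aβ42/TREM2R47H/TYROBP than in Aβ42, 879 of 14279 or 6.16% (3.28% higher and 2.87% lower). Counts of called list members below are to be read against these shares. A total of 3778 genes had an unadjusted p under 0.05. Most differences were small: the median absolute log2 difference was 0.45 for the higher DEGs and 0.57 for the lower DEGs, and 85 higher and 119 lower DEGs exceeded 1. The libraries of the 2 genotypes did not overlap in 841 of the 879 DEGs, against 30.6% of all genes. Fitted on these 6 libraries alone, the same rule called 84 DEGs (45 higher and 39 lower). When each library was centred on its median, the DEGs were 373 higher and 531 lower, so the share that was higher was 41.3% in place of 53.4%. With 3 libraries against 3, an exact two-sided permutation test of a single gene cannot go below p = 0.1. The labels do not say that the libraries came from separate cultures. The p-values thus measure a spread between libraries that may be technical, pooled over all 35 libraries and not that of the 6 compared alone.

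**Figure D1:**
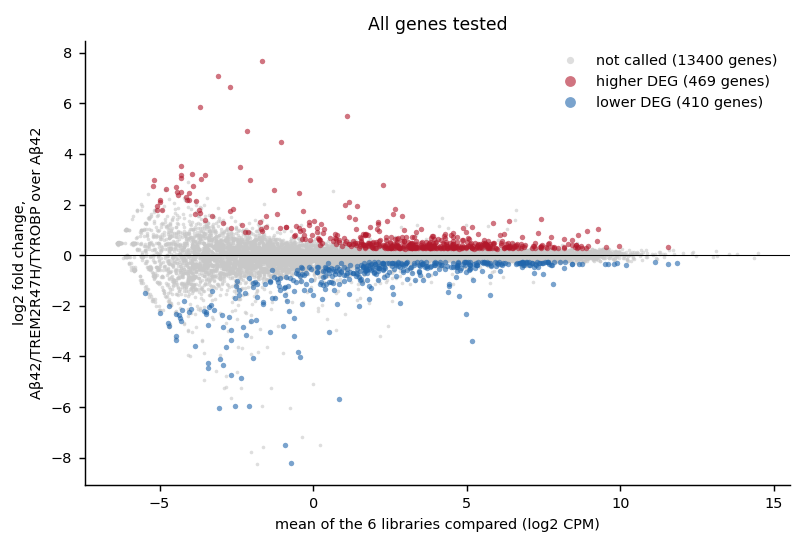
Log2 fold change of Aβ42/TREM2R47H/TYROBP over Aβ42 (vertical axis) against the mean of the 6 libraries in log2 CPM (horizontal axis), 1 point per gene. The 469 higher DEGs (red) and 410 lower DEGs (blue) lie on both sides of 0 over most of the range, and differences above 2 occur mostly at low levels.

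The libraries were alike at the level of the whole profile. Over the 10140 genes with a mean of at least 0 log2 CPM, Pearson's r across genes was 0.9957 to 0.9975 among the Aβ42/TREM2R47H/TYROBP libraries, 0.9946 to 0.9970 among the Aβ42 libraries and 0.9886 to 0.9933 between the genotypes. Genes are not independent replicates, so these values only describe the libraries. Aβ42 libraries 1 and 3 stood apart in 1 respect: the median of 28 Jonah and trypsin genes, digestive proteases of the gut, was -5.29, -5.70 and -4.65 log2 CPM in Aβ42/TREM2R47H/TYROBP libraries, against -0.55, -4.73 and -1.06 in Aβ42 libraries. None of the 28 passed the test in limma, and their median log2 difference was -1.24. The elav-gal4 control library 3 was also high, at -1.05. No other elav-gal4 library was above -2, but 4 GMR-gal4 libraries were (up to -0.59), and they stayed in every fit. Leaving out the 3 elav-gal4 libraries keeps Aβ42 library 2 alone in its genotype, whose spread is then assumed to be that of the other genotypes, so calls in that fit compare 1 library with 3. In that fit the rule called 584 DEGs (330 higher and 254 lower), of which 418 were among the 879. Only some of the calls and list counts that moved in that fit are given beside the genes they touch. NimC1, NimB3, Ilp5, CG8713, Unc-89 and sls were no longer DEGs in it. Their log2 differences there were -0.31, -0.27, 0.43, -0.46, -0.49 and -0.33. Mhc became a lower DEG in it (log2 -0.30). The part of gut RNA in these calls was not tested.

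Head tissue was checked by fixed markers. All 6 neuronal, 7 glial, 5 photoreceptor, 6 hemocyte, 7 fat body, 5 muscle and 4 cuticle markers were measured, and 2 of 5 male reproductive markers. None of the neuronal or glial markers was a DEG, and their summed levels ranged over 11.21 to 11.24 log2 CPM in Aβ42/TREM2R47H/TYROBP and 11.26 to 11.28 in Aβ42 for neurons, and over 11.06 to 11.09 and 11.05 to 11.08 for glia. Fat body markers summed to 6.36 to 7.34 in Aβ42/TREM2R47H/TYROBP, against 7.19 to 7.84 in Aβ42, and 2 of 7 were lower DEGs (fit and to). Hemocyte markers summed to 9.44 to 9.71 against 9.29 to 9.50, with 2 of 6 higher and 2 of 6 lower. Muscle markers summed to 10.63 to 10.84 against 10.87 to 10.99 with no DEG. In bulk heads, fewer cells of a type and less RNA per cell cannot be told apart. The human transgenes are not among the fly genes of the table, so their level was not analysed here.

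The genes with the widest gaps were near silent in 1 genotype. y, the yellow gene of cuticle pigmentation that transgene vectors often carry as a marker, was 3.84, 3.81 and 3.94 log2 CPM in Aβ42/TREM2R47H/TYROBP libraries, against -1.52, -1.71 and -1.68 in Aβ42 libraries. The groups were far apart, and the log2 difference was 5.50 (SE 0.10, limma adjusted p = 3.2e-22). It was 5.43 in Aβ42/TREM2WT/TYROBP over Aβ42 and 5.18 in TREM2R47H/TYROBP over control, so it was high in each of these 3 genotypes with a construct. The eye colour transporter gene w, another vector marker, was 8.36, 8.37 and 8.41 in Aβ42/TREM2R47H/TYROBP and 8.34, 8.36 and 8.38 in Aβ42, and these overlapped. c-cup on 2L, whose human counterpart is NENF, was 0.58, 0.36 and 0.34 in Aβ42/TREM2R47H/TYROBP. In Aβ42 it was -6.28, -7.06 and -6.55, close to the lowest value of any gene in those libraries (-6.35, -7.47 and -6.69). The log2 difference of 7.08 (adjusted p = 2.61e-12) therefore depends on how near-zero counts were transformed, and no fold is given for it. With the TREM2WT construct c-cup was 0.18, 0.37 and 0.09.

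A pair of overlapping genes at the distal end of 3R behaved differently with the WT construct. CG15510 (chromosome 3R, 29835950 to 29837447, plus strand, BDGP6), now called Prtl99C for protamine-like 99C, was 2.30, 1.92 and 2.35 log2 CPM in Aβ42/TREM2R47H/TYROBP, against -4.59, -7.18 and -4.76 in Aβ42. CG42592 (29835610 to 29836288) lies on the other strand of the same stretch and was 0.59, 0.40 and 0.93 against -4.61, -7.15 and -6.38. The log2 differences were 7.67 (adjusted p = 7.57e-07) and 6.65 (adjusted p = 1.01e-08). Whether the authors counted by strand is not given in the sources used here, so the reads of the pair cannot be told apart. The same holds for the other genes described that overlap a neighbour on the opposite strand, among them y, CG14879, Nap1, Prx6005, Cyp4p2, PPO1, Ilp3, tobi, CG2650 and inaD. In Aβ42/TREM2WT/TYROBP both remained low, at -5.95, -4.01 and -3.81 for CG15510, and the direct difference between the R47H and WT forms with Aβ42 was 6.93 for CG15510 (adjusted p = 1.34e-05) and 6.56 for CG42592 (adjusted p = 6.19e-08). The next gene along, Atg16 (29827281 to 29835101, minus strand), encodes a component of the autophagosome conjugation machinery. It was 5.24, 5.08 and 5.24 in Aβ42/TREM2R47H/TYROBP, 4.66, 4.58 and 4.57 in Aβ42 and 4.59, 4.68 and 4.62 in Aβ42/TREM2WT/TYROBP. Its log2 difference over Aβ42 was 0.58 (SE 0.04, adjusted p = 2.85e-09).

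A second pair of neighbours on 3R showed the same pattern. Desi, an epidermal gene known for protecting larvae from desiccation (10779569 to 10780825), was 0.62, 0.60 and 1.06 in Aβ42/TREM2R47H/TYROBP and -2.12, -1.59 and -1.36 in Aβ42. mRpL37, a mitochondrial ribosomal protein gene (10782563 to 10784092), was 4.25, 4.24 and 4.28 against 3.76, 3.68 and 3.77. Neither gene overlapped between the genotypes. The log2 differences were 2.44 and 0.52 (adjusted p = 2.85e-05 and 3.53e-06), and they were -0.22 and 0.08 for the WT construct over Aβ42. mus308, the gene of DNA polymerase theta on 3R (12705523 to 12712299), was 4.63, 4.58 and 4.68 in Aβ42/TREM2R47H/TYROBP, 3.87, 3.98 and 4.0 in Aβ42 and 3.89, 3.84 and 3.85 in Aβ42/TREM2WT/TYROBP. Its log2 difference over Aβ42 was 0.68 (adjusted p = 3.43e-09).

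DEGs lay on every chromosome arm but not evenly. The share of tested genes called was 6.13% on 2L, 7.05% on 2R, 5.89% on 3L, 7.14% on 3R, 7.41% on chromosome 4 and 3.61% on X, which carries the drivers in both genotypes. Of 162 windows of 1000000 bases, 89 held 4 or more DEGs. The fullest was 3R from 25000001 to 26000000, where 24 of 171 genes were called (14%). It held CG31436, CG10553 and to, described below. These shares are a description without a test.

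**Figure D2:**
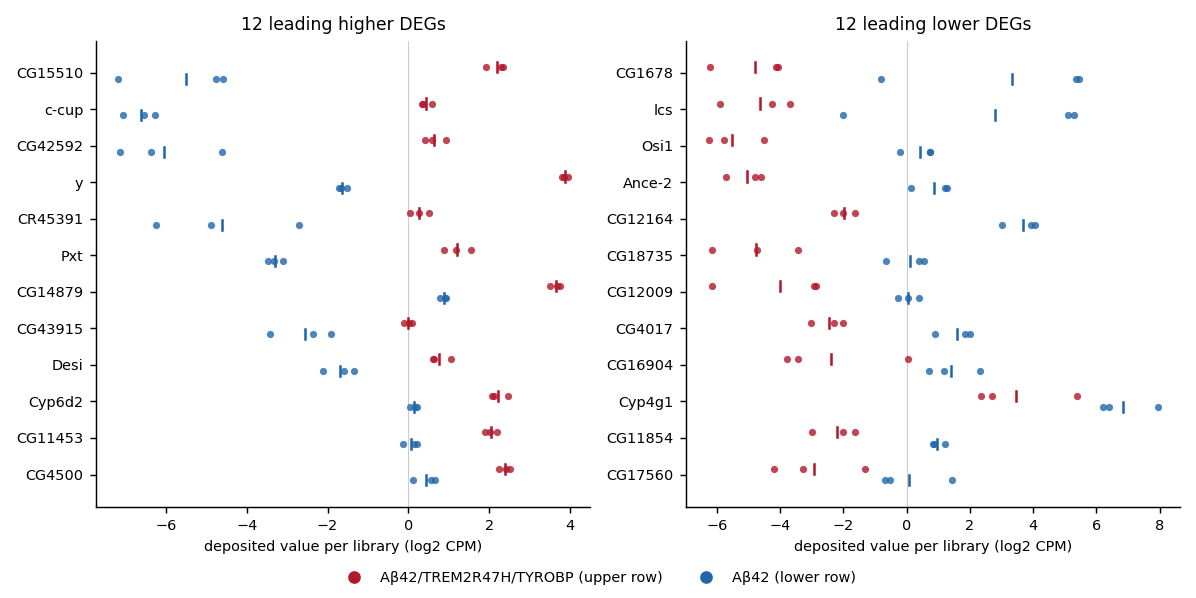
Deposited log2 CPM of the 12 higher (left) and 12 lower (right) DEGs with the widest log2 difference among those expressed in the higher genotype, with 1 point per library and a bar at the mean of 3. The Aβ42/TREM2R47H/TYROBP points (red, upper row of each gene) and the Aβ42 points (blue, lower row) do not overlap because the genes were chosen so, and CG1678, lcs and Cyp4g1 are spread over several log2 units within a genotype.

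Further leading higher genes included some that were also high with the WT construct and some that were not. CG14879 (3R) was 3.50, 3.67 and 3.76 in Aβ42/TREM2R47H/TYROBP, against 0.91, 0.79 and 0.92 in Aβ42, a 6.84-fold difference (log2 2.77, SE 0.16, adjusted p = 1.59e-11). Its values in Aβ42/TREM2WT/TYROBP were 1.12, 0.89 and 1.08, below all 3 libraries with the R47H form. Its overlapping neighbour is pad. CG11453, an acyl-CoA synthetase family gene now called Acsx4, was 1.90, 2.19 and 2.02 in Aβ42/TREM2R47H/TYROBP, 0.14, 0.21 and -0.14 in Aβ42 and -0.22, 0.14 and -0.40 in Aβ42/TREM2WT/TYROBP. The log2 difference over Aβ42 was 1.97 (adjusted p = 6.3e-10). CG4500, with the human acyl-CoA synthetases ACSBG1 and ACSBG2 as counterparts, was 2.5, 2.42 and 2.23 against 0.11, 0.55 and 0.65 (log2 1.93, adjusted p = 5.75e-06). Here the WT construct lay between, at 1.77, 1.45 and 1.47. Nap1, a nucleosome assembly protein gene, was 3.36, 3.79 and 3.50 in Aβ42/TREM2R47H/TYROBP and 1.65, 1.75 and 1.84 in Aβ42, a 3.51-fold difference (adjusted p = 2.94e-13). It was also high with the WT construct, at 3.67, 3.58 and 3.71 (R47H minus WT -0.15, adjusted p = 0.472). Pxt, a peroxidase known from oogenesis, was 1.18, 1.55 and 0.88 against -3.34, -3.11 and -3.48 (log2 4.48, SE 1.28, adjusted p = 0.0221). That call was lost without Aβ42/TREM2R47H/TYROBP library 2 (adjusted p = 0.0816), Aβ42 library 1 (0.0544) or Aβ42 library 3 (0.0664), and without the 3 elav-gal4 libraries with high protease genes (0.258). The non-coding gene CR45391 (log2 4.90) and CG43915 (log2 2.56) were also called (adjusted p = 0.00123 and 0.00796) but not without the 3 elav-gal4 libraries with high protease genes (adjusted p = 0.131 and 0.112).

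Of the leading lower genes, CG12164, Ance-2, Osi1, CG4017 and CG11854 were also low with the WT construct, where the log2 differences from Aβ42 were -5.81, -5.82, -4.50, -3.89 and -3.23. CG12164 (2R), whose role is not annotated, was -1.64, -2.01 and -2.31 in Aβ42/TREM2R47H/TYROBP, against 4.07, 3.93 and 3.03 in Aβ42 (log2 -5.68, SE 0.30, adjusted p = 3.03e-12). It was -1.72, -1.80 and -2.60 in Aβ42/TREM2WT/TYROBP. Ance-2, a gene of the angiotensin-converting enzyme family, was -4.79, -5.73 and -4.61 against 1.22, 1.28 and 0.14, and Osi1, of the cuticle-associated Osiris family, was -6.27, -5.78 and -4.51 against 0.73, 0.74 and -0.22. Both were near the bottom of the range in Aβ42/TREM2R47H/TYROBP, and the log2 differences were -5.94 and -5.96 (adjusted p = 1.22e-06 and 5.71e-07). The carboxypeptidase gene CG4017 was -2.29, -2.02 and -3.04 against 1.99, 1.86 and 0.89 (log2 -4.04, adjusted p = 1.22e-07). The serine protease gene CG18735, CG12009 and CG11854 were likewise lower, with log2 differences of -4.86, -4.06 and -3.19 (adjusted p = 0.000789, 0.000319 and 2.57e-05).

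The other 5 of the 12 leading lower genes varied most between libraries. CG1678 was -4.07, -4.13 and -6.21 in Aβ42/TREM2R47H/TYROBP, against 5.45, -0.82 and 5.37 in Aβ42, and lcs was -3.70, -5.92 and -4.26 against 5.10, -2.03 and 5.31. Both were thus high in the same Aβ42 libraries, 1 and 3, as the protease genes, and both calls (adjusted p = 0.0396 and 0.01) ended without Aβ42 library 1 (0.129 and 0.0542) or without Aβ42 library 3 (0.134 and 0.0578). CG1678 also passed no longer without any 1 of the Aβ42/TREM2R47H/TYROBP libraries (adjusted p 0.0672 to 0.132). Cyp4g1, the oenocyte cytochrome P450 that makes cuticular hydrocarbons, was 5.39, 2.69 and 2.34 in Aβ42/TREM2R47H/TYROBP and 6.39, 6.22 and 7.95 in Aβ42 (log2 -3.40, SE 1.00, adjusted p = 0.0269). CG16904 was 0.04, -3.45 and -3.80 against 1.17, 0.71 and 2.33, and CG17560, a fatty acyl-CoA reductase gene, was -1.31, -4.20 and -3.28 against -0.67, -0.53 and 1.45. All 3 genes were highest in Aβ42 library 3 and, within the other genotype, in library 1. Cyp4g1, CG16904 and CG17560 failed the test without Aβ42/TREM2R47H/TYROBP library 2 (adjusted p = 0.105, 0.0867 and 0.181), without its library 3 (0.129, 0.105 and 0.132) and without Aβ42 library 3 (0.118, 0.0758 and 0.182). Without the 3 elav-gal4 libraries with high protease genes none of these 5 genes was called (adjusted p 0.258 to 0.608). CG17560 also failed without Aβ42 library 1 (0.0507) or library 2 (0.0768).

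Detoxification enzymes were called more often than all genes, though less often than some shorter lists, such as immune induced peptide (50%) and hemocyte genes (35.7%). Of 83 cytochrome P450 genes, 17 were higher and 6 were lower DEGs (27.7% called, against 6.16% of all genes). Their median log2 difference was 0.07, against 0.01 over all genes. Cyp6d2 was 2.06, 2.47 and 2.11 in Aβ42/TREM2R47H/TYROBP and 0.03, 0.21 and 0.16 in Aβ42, a 4.22-fold difference (adjusted p = 6.29e-11). Cyp6a2, known for its part in insecticide resistance, was 6.70, 6.58 and 6.64 against 5.68, 5.76 and 5.87, which is 1.80-fold (adjusted p = 6.16e-11). Cyp6a14 was 2.48, 2.35 and 2.42 against 1.06, 1.05 and 1.71, and Cyp4p2 was 5.49, 5.37 and 5.49 against 4.48, 4.29 and 4.79. None of these 4 genes overlapped between the genotypes, and the log2 differences of the last pair were 1.13 and 0.91. The same 4 genes differed by 2.06, 0.68, 0.96 and 0.94 between the WT construct and Aβ42, and none passed the test between the R47H and WT forms (adjusted p 0.106 to 0.976). Cyp6a23 went the other way, at 4.45, 4.16 and 4.50 against 5.02, 4.83 and 5.05 (log2 -0.61, adjusted p = 4.78e-08). Without the 3 elav-gal4 libraries with high protease genes 3 P450 genes were lower DEGs.

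Of 35 glutathione S-transferase genes, 8 were higher and 1 was lower (25.7% called, against 6.16% of all genes), with a median log2 difference of 0.17. GstZ1, whose human counterpart acts in tyrosine breakdown, was 3.42, 3.47 and 3.49 in Aβ42/TREM2R47H/TYROBP, against 3.13, 3.03 and 3.01 in Aβ42 (log2 0.40, SE 0.07, adjusted p = 0.000266). Here the WT construct gave 3.09, 3.15 and 3.16, and the R47H form exceeded it by 0.32 (adjusted p = 0.00864). The higher count was 4 and the lower count 0 without the 3 elav-gal4 libraries with high protease genes. Prx6005, a peroxiredoxin of the PRDX6 type, was 3.93, 4.14 and 4.01 against 2.92, 3.05 and 3.02 (2.05-fold, adjusted p = 2.57e-12) and reached 4.08, 4.02 and 3.97 with the WT construct. UDP-glycosyltransferases, which attach sugars to small lipophilic molecules, were mixed, with 1 of 17 higher and 3 lower (23.5% called). Ugt86Dd was 3.77, 3.83 and 4.0 against 4.87, 4.88 and 5.22, which is 2.20-fold lower (adjusted p = 2.54e-08). Ugt86Dc was 0.49, 0.65 and 0.27 against -0.64, -1.06 and -0.53 (log2 1.21, adjusted p = 2.69e-05). Ugt35b was 6.13, 6.17 and 6.18 in Aβ42/TREM2R47H/TYROBP, 6.48, 6.52 and 6.55 in Aβ42 and 6.62, 6.69 and 6.63 in Aβ42/TREM2WT/TYROBP. It was lower than in both (log2 -0.35 and -0.51, adjusted p = 0.000518 and 1.91e-05).

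Ecdysteroid kinase-like genes, a family related to enzymes that phosphorylate steroid hormones, had 7 higher and 3 lower DEGs among 36. That is 27.8% called, against 6.16% of all genes, with a median log2 difference of 0.04. Without Aβ42 library 2 the lower count was 5. Of those that rose, 4 lie close together on 3R. CG31436 (25304137 to 25305651) was 5.36, 5.44 and 5.43 in Aβ42/TREM2R47H/TYROBP, against 4.32, 4.23 and 4.42 in Aβ42, a 2.12-fold difference (SE of the log2 value 0.06, adjusted p = 7.1e-12). CG10553 (25316461 to 25318111) was 4.64, 4.74 and 4.79 against 3.98, 3.80 and 3.85, and CG10562 (25321053 to 25322757) was 4.67, 4.81 and 4.83 against 4.33, 4.26 and 4.36. CHKov2 (25329530 to 25331203) was 3.68, 3.77 and 3.80 against 3.28, 3.26 and 3.22. In all 4 the genotypes were apart, with log2 differences of 0.84, 0.45 and 0.50 for the last 3. All 4 were also higher with the R47H than with the WT construct, by 0.96, 0.56, 0.45 and 0.36 on the log2 scale (adjusted p = 5.99e-10, 0.000131, 9.96e-05 and 0.0134). The WT construct over Aβ42 gave 0.13 for CG31436, 0.28 for CG10553 and 0.14 for CHKov2, and no difference to 2 decimals for CG10562.

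**Figure D3:**
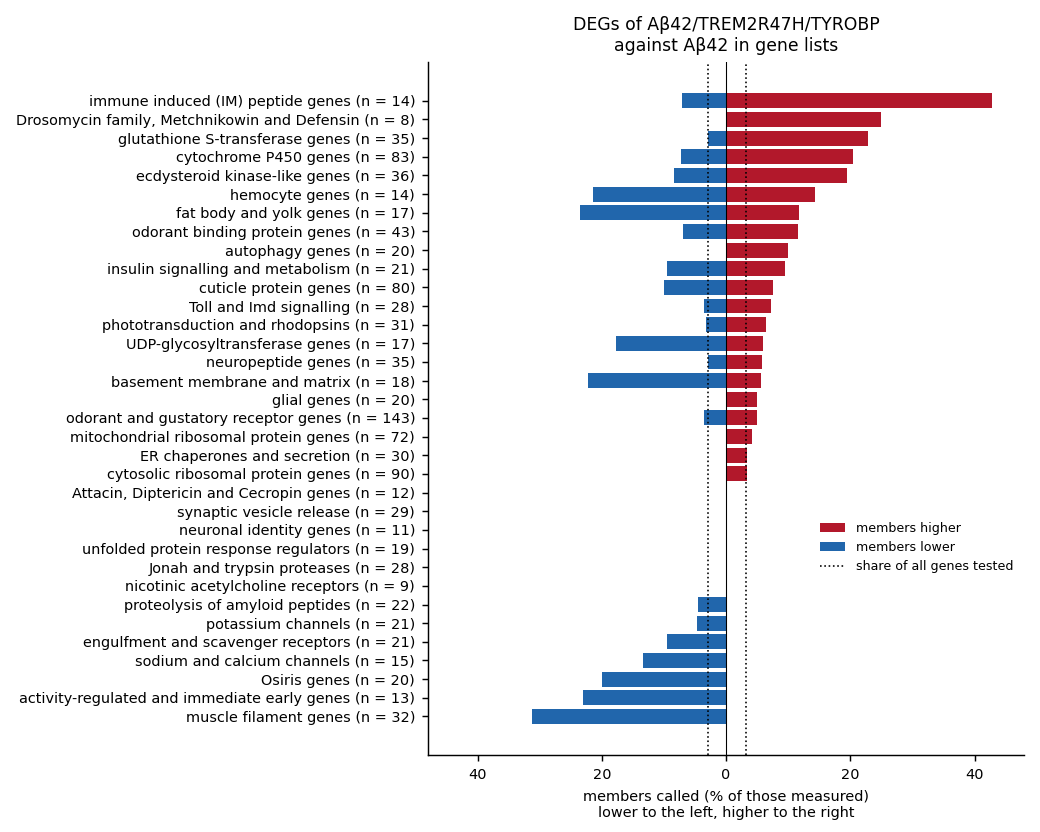
Members called in the gene lists by function that the text describes, as a percent of the members measured, with lower DEGs to the left (blue) and higher DEGs to the right (red). Dotted lines mark the shares over all genes tested, 2.87% lower and 3.28% higher. Among the lists shown, immune induced peptides extend furthest to the right (6 of 14) and muscle filament genes furthest to the left (10 of 32); the study's own lists are not shown.

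Immune effectors were split by family. Of 14 immune induced (IM) peptide genes, short secreted peptides under the Toll pathway, 6 were higher and 1 was lower, with a median log2 difference of 0.32. IM14, the Daisho peptide gene Dso2, was 7.72, 7.80 and 7.74 log2 CPM in Aβ42/TREM2R47H/TYROBP, against 6.94, 6.76 and 6.97 in Aβ42, a log2 difference of 0.87 (adjusted p = 0.000495). IM4, the other Daisho gene (Dso1), was 8.49, 8.62 and 8.47 against 8.15, 7.96 and 8.18. The bomanin gene CG5778 (BomT3) was 6.04, 5.97 and 5.88 against 5.47, 5.31 and 5.40, and CG16713 was 6.15, 6.16 and 6.14 against 5.80, 5.55 and 5.58. These 4 rose without overlap, the last 3 by 0.43, 0.57 and 0.50 on the log2 scale (adjusted p = 0.00605, 0.000925 and 0.00222). None of the 4 passed the test between the R47H and WT forms (adjusted p 0.239 to 0.72). The 1 lower member, IM23, was lost without Aβ42/TREM2R47H/TYROBP library 2 or 3 or without Aβ42 library 2.

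In the Drosomycin family 2 of 8 were higher and none was lower, with a median log2 difference of -0.49, and both higher ones were Drosomycin-like genes on 3L. Drsl4 was 5.80, 5.54 and 5.83 in Aβ42/TREM2R47H/TYROBP, against 4.73, 4.49 and 4.57 in Aβ42 (2.19-fold, adjusted p = 1.03e-06). Drsl5 was 7.24, 7.05 and 7.16 against 6.54, 6.66 and 6.09 (1.65-fold, adjusted p = 0.00011). Both exceeded the WT construct as well, where Drsl4 was 4.35, 4.60 and 4.73 (difference 1.16, adjusted p = 2.66e-06) and Drsl5 was 6.27, 6.66 and 6.56 (difference 0.61, adjusted p = 0.00276). Drs itself, the antifungal Toll target, was 3.03, 3.37 and 3.48 against 2.95, 5.56 and 4.57, and these overlapped (log2 -1.07, adjusted p = 0.19). Without Aβ42 library 1 Drs was a lower DEG (log2 -1.78, adjusted p = 0.0221), as it was without the 3 elav-gal4 libraries with high protease genes (log2 -2.34, adjusted p = 0.0128), where it was set against Aβ42 library 2 alone, the highest of the 3.

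None of 12 Attacin, Diptericin, Drosocin and Cecropin type genes, antibacterial targets of the Imd pathway, passed the test, with a median log2 difference of -0.91. AttC was 6.72, 6.93 and 6.25 in Aβ42/TREM2R47H/TYROBP, against 7.75, 7.61 and 7.70 in Aβ42 (log2 -1.04, SE 0.40, adjusted p = 0.0949), and DptB was 5.81, 6.12 and 5.32 against 6.71, 6.47 and 6.70 (log2 -0.87, adjusted p = 0.252). In both the genotypes were apart, but neither passed the test. The fitted difference lay below 0 for all 12 genes.

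Of 28 components of Toll and Imd signalling 2 were higher and 1 was lower (10.7% called, against 6.16% of all genes). SPE, the Spätzle-processing protease, was 7.87, 7.99 and 7.92 in Aβ42/TREM2R47H/TYROBP and 7.60, 7.69 and 7.54 in Aβ42 (log2 0.32, SE 0.05, adjusted p = 0.000125). With the WT construct it was 7.53, 7.54 and 7.67. Its fold change was under 1.2 without the 3 elav-gal4 libraries with high protease genes (log2 0.25). The Toll-family receptor gene Toll-4 was -0.14, -0.17 and -0.36 against -0.49, -1.70 and -0.81 (log2 0.76, adjusted p = 0.018). That call ended without Aβ42/TREM2R47H/TYROBP library 2 (adjusted p = 0.0773) or Aβ42 library 2 (0.151), which left 1 higher member. The lower member, pirk, was lost without Aβ42/TREM2R47H/TYROBP library 1 or 2 and without any of the 3 Aβ42 libraries. Tep4, a secreted thioester protein related to complement, was 8.95, 8.95 and 9.17 against 8.25, 8.27 and 8.20 (1.73-fold, adjusted p = 5.16e-09), and 8.81, 8.82 and 8.83 with the WT construct. GNBP-like3 was lower, at 3.70, 3.63 and 3.72 against 5.02, 5.37 and 4.95 (log2 -1.44, adjusted p = 5.02e-06).

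Of 14 hemocyte genes 2 were higher and 3 were lower, with a median log2 difference of -0.06. PPO1, a prophenoloxidase of crystal cells, was 6.11, 6.91 and 6.39 in Aβ42/TREM2R47H/TYROBP, against 5.72, 5.38 and 5.99 in Aβ42 (1.72-fold, adjusted p = 0.00372). The phagocytic receptor gene NimC1 was 4.25, 4.70 and 4.44 against 4.88, 4.80 and 5.05 (log2 -0.44, adjusted p = 0.0104). It passed no longer without Aβ42/TREM2R47H/TYROBP library 1 (adjusted p = 0.0636) or Aβ42 library 3 (0.0651). The related receptor gene eater was 3.84, 4.0 and 3.98 against 3.72, 3.55 and 3.80, a log2 difference of 0.24 that did not reach 1.2-fold, although it was 0.30 and called without Aβ42/TREM2R47H/TYROBP library 1 and 0.29 without Aβ42 library 3. Only 1 member was higher without Aβ42/TREM2R47H/TYROBP library 2, Aβ42 library 1 or Aβ42 library 2, and only 1 was lower without Aβ42/TREM2R47H/TYROBP library 3 or Aβ42 library 2.

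Insulin and nutrient genes were called higher and lower. Ilp3, 1 of the insulin-like peptides made by neurosecretory cells of the brain, was 2.76, 2.39 and 2.70 log2 CPM in Aβ42/TREM2R47H/TYROBP, against 1.58, 1.29 and 1.84 in Aβ42, a 2.03-fold difference (SE of the log2 value 0.07, adjusted p = 1.27e-09). It was 2.28, 2.36 and 2.42 with the WT construct, 0.48 below the R47H form in the fit (adjusted p = 0.000408). Ilp5 was 2.70, 2.71 and 2.26 against 2.28, 2.04 and 2.10, which overlapped (log2 0.40, adjusted p = 0.0217), and its call ended without Aβ42/TREM2R47H/TYROBP library 1 or 2 (0.0784 and 0.16) or Aβ42 library 2 or 3 (0.0678 and 0.0932). Ilp2 was 6.20, 6.08 and 6.21 against 5.97, 5.96 and 5.85 (log2 0.23, below the fold threshold, but 0.26 and called without Aβ42 library 2). tobi, an alpha-glucosidase gene known as a target of brain insulin, was 7.05, 7.06 and 7.19 in Aβ42/TREM2R47H/TYROBP, 7.83, 7.93 and 7.75 in Aβ42 and 7.95, 7.82 and 8.16 in Aβ42/TREM2WT/TYROBP. It was lower than in both, with log2 differences of -0.74 (adjusted p = 0.000397) and -0.89 (adjusted p = 0.000158). ImpL2, which encodes a secreted binder of insulin-like peptides, was 4.79, 4.55 and 4.76 against 5.0, 5.10 and 5.09 (log2 -0.36, adjusted p = 0.00112). Over the insulin list 2 of 21 (Ilp3 and Ilp5) were higher and 2 (tobi and ImpL2) were lower.

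CG10924, the phosphoenolpyruvate carboxykinase gene Pepck2 of gluconeogenesis, was 7.03, 7.03 and 7.11 in Aβ42/TREM2R47H/TYROBP, against 5.52, 5.73 and 5.91 in Aβ42 (2.52-fold, adjusted p = 6.5e-08). It was 6.57, 6.83 and 6.56 with the WT construct. Fat body and yolk genes had 2 of 17 higher and 4 lower, with a median log2 difference of -0.20. to (takeout), a secreted juvenile hormone-binding type protein of the head fat body, was 3.87, 3.23 and 4.33 against 6.35, 5.85 and 6.11, which is 4.99-fold lower (adjusted p = 5.16e-09). CG2650, the related gene daywake, was 1.90, 2.10 and 1.66 against 3.95, 4.18 and 3.20 (3.65-fold lower, adjusted p = 3.59e-08). With the WT construct their log2 differences from Aβ42 were -2.45 and -1.73. CG2650 overlaps the clock gene per. fit, a feeding-related peptide gene of the fat body around the brain, was 4.28, 4.01 and 4.45 in Aβ42/TREM2R47H/TYROBP, 5.24, 4.56 and 5.34 in Aβ42 and 5.34, 5.52 and 5.49 in Aβ42/TREM2WT/TYROBP (log2 -0.86 over Aβ42, adjusted p = 9.41e-06). Without RIN in the fit the difference was -0.80 and did not pass (adjusted p = 0.347). Obp99b, an abundant odorant-binding protein gene, was 9.61, 10.07 and 9.63 against 8.83, 9.0 and 8.55 (log2 1.03, adjusted p = 1.48e-06), and it too failed without RIN (adjusted p = 0.179). The summed fat body markers given above overlapped between the genotypes, and their part in these differences was not tested.

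Few neuronal genes were DEGs, but these lists were short beside a share of 6.16% over all genes. Potassium channel genes were called at 4.76%, and sodium and calcium channel genes, described below, at 13.3%. None of 11 neuronal identity genes and none of 29 synaptic vesicle genes was a DEG, which lists this short can give at that share. The active zone gene brp was 8.23, 8.19 and 8.11 in Aβ42/TREM2R47H/TYROBP and 8.40, 8.53 and 8.29 in Aβ42 (log2 -0.23, adjusted p = 0.0233, below the fold threshold). Without Aβ42 library 3 the lower DEGs were 2 in each of these lists, brp among them (log2 -0.28, adjusted p = 0.0146), and without Aβ42/TREM2R47H/TYROBP library 1 there was 1 among the neuronal identity genes. Of 21 potassium channel genes 1 was lower, CG8713 (sand), at 1.26, 1.38 and 1.53 against 1.81, 1.82 and 1.63 (log2 -0.37, adjusted p = 0.0166). Its call ended without Aβ42/TREM2R47H/TYROBP library 1 (0.0833), Aβ42 library 1 (0.0571) or Aβ42 library 2 (0.0775), and 3 potassium channel genes were lower without Aβ42 library 3. Sh, the Shaker channel gene, was 8.27, 8.18 and 8.11 against 8.40, 8.39 and 8.33 (log2 -0.18, adjusted p = 0.121). SK, for a calcium-activated potassium channel, was 7.10, 6.97 and 6.99 against 7.14, 7.22 and 7.13 (log2 -0.14, adjusted p = 0.133), and Shab was 7.13, 7.06 and 6.96 against 7.27, 7.49 and 7.14 (log2 -0.25, adjusted p = 0.0517). The sodium channel gene para (log2 -0.18, adjusted p = 0.0415) and the glutamate receptor subunit gene Nmdar2 (log2 -0.24, adjusted p = 0.0695) overlapped between the genotypes. All of these lay below 0 but under 1.2-fold. Shab and Nmdar2 were called without Aβ42/TREM2R47H/TYROBP library 1 (log2 -0.29 and -0.30) and without Aβ42 library 3 (log2 -0.33 and -0.31). Against Aβ42 library 2 alone, in the fit without the 3 elav-gal4 libraries with high protease genes, brp, Shab and Nmdar2 were also lower DEGs (log2 -0.33, -0.43 and -0.44), and Shab was with each library centred on its median (log2 -0.28).

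Among 15 sodium and calcium channel genes 2 were lower, RyR and Ca-alpha1T. RyR, the ryanodine receptor that releases calcium from internal stores of muscle and neurons, was 6.98, 6.80 and 6.74 in Aβ42/TREM2R47H/TYROBP, against 7.60, 7.64 and 7.37 in Aβ42 (1.62-fold lower, adjusted p = 1.52e-05). With the WT construct it was 7.13, 7.06 and 6.97. The count was 1 without Aβ42/TREM2R47H/TYROBP library 3 or Aβ42 library 2, and it was 4 when each library was centred on its median or the 3 elav-gal4 libraries with high protease genes were left out. The metabotropic GABA receptor gene GABA-B-R3 was 5.37, 5.41 and 5.31 against 5.62, 5.80 and 5.64 (log2 -0.31, adjusted p = 0.000135). Activity-regulated genes had 3 of 13 lower and none higher. sr, the fly counterpart of the EGR factors, was 4.35, 4.33 and 4.24 against 4.74, 4.84 and 4.78 (log2 -0.48, adjusted p = 1.67e-05). Gadd45, a stress-response gene, was 3.14, 3.01 and 3.15 against 3.90, 3.59 and 3.81 (log2 -0.67, adjusted p = 0.000147), and kay, the fly Fos gene, was 7.33, 7.13 and 7.23 against 7.59, 7.45 and 7.56 (log2 -0.30, adjusted p = 0.00197). The 3 genes did not overlap between genotypes. kay fell under the fold threshold without Aβ42/TREM2R47H/TYROBP library 2 (log2 -0.26), and Gadd45 and kay did not pass without the 3 elav-gal4 libraries with high protease genes (adjusted p = 0.0619 and 0.121).

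Repo-positive glia are the cells in which the construct was driven. Of 20 glial genes 1 was higher (5% called, against 6.16% of all genes). It was CG1732, the glial GABA transporter gene Gat, at 7.72, 7.75 and 7.77 in Aβ42/TREM2R47H/TYROBP, against 7.46, 7.40 and 7.54 in Aβ42 (log2 0.28, adjusted p = 0.00245). Its fold change was under 1.2 without Aβ42 library 2 (log2 0.24) or with each library centred on its median (log2 0.25). repo was 6.79, 6.79 and 6.72 against 6.87, 6.95 and 6.85 (log2 -0.12, adjusted p = 0.0652). htl, a fibroblast growth factor receptor gene of glia, was 5.34, 5.32 and 5.44 against 5.56, 5.57 and 5.57 (log2 -0.20, adjusted p = 0.0015, below the fold threshold). Of 31 phototransduction genes 2 were higher and 1 was lower (9.68% called, against 6.16% of all genes), in RNA of whole heads. ninaD, a scavenger receptor gene for carotenoid uptake, was 3.41, 3.35 and 3.63 against 2.47, 2.39 and 2.52 (1.98-fold, adjusted p = 2.03e-09). inaD, the scaffold of the photoreceptor signalling complex, was 8.93, 8.94 and 8.91 against 8.51, 8.58 and 8.53 (1.30-fold, adjusted p = 6.02e-07). The lower member, the rhodopsin gene Rh7, was lost without Aβ42 library 3.

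Endoplasmic reticulum (ER) chaperone and secretion genes were called at 3.33%, against 6.16% of all genes. Of 30 ER chaperone and secretion genes 1 was higher and none was lower, and none of 19 unfolded protein response regulators was called. Hsc70-3, the ER chaperone BiP, was 9.66, 9.78 and 9.76 in Aβ42/TREM2R47H/TYROBP, 9.87, 9.96 and 10 in Aβ42 and 8.74, 8.83 and 8.84 in control (log2 -0.21 over Aβ42, adjusted p = 0.00304). Gp93, the ER form of Hsp90, was 8.13, 8.28 and 8.16, against 8.39, 8.50 and 8.42 in Aβ42 and 7.42, 7.44 and 7.47 in control (log2 -0.25 over Aβ42, adjusted p = 0.0119). Both thus lay below Aβ42 in every library but above control. Gp93 was called without Aβ42/TREM2R47H/TYROBP library 2 (log2 -0.29) or Aβ42 library 1 (log2 -0.27). The higher member was CG11858, a peptidyl-prolyl isomerase gene, at 3.36, 3.55 and 3.40 against 3.04, 2.98 and 2.94 in Aβ42 (log2 0.44, adjusted p = 0.000178). Without Aβ42/TREM2R47H/TYROBP library 2 the counts were 2 higher and 1 lower, and 1 was lower without Aβ42 library 1. The heat shock gene Hsp70Bb, whose family supplies promoter sequence to many transgene vectors, was 6.97, 7.08 and 7.07 in Aβ42/TREM2R47H/TYROBP, 6.88, 6.80 and 6.83 in Aβ42, 4.69, 4.39 and 4.69 in TREM2R47H/TYROBP and 0.47, 0.66 and 0.52 in control. The log2 difference between Aβ42/TREM2R47H/TYROBP and Aβ42 was 0.21 (adjusted p = 0.0577). Control is the one of these 4 genotypes without a UAS or LexAop construct, and the part of vector sequence in these values was not tested. Hsp70Aa was a DEG at a low level, -2.70, -2.90 and -2.77 against -6.23, -4.79 and -6.46, but the copies of Hsp70 are nearly identical, so which copy the reads came from is uncertain. Its call ended without the 3 elav-gal4 libraries with high protease genes (adjusted p = 0.255) and when 1 was added to the linear value before the log (log2 0.17).

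Muscle filament genes were lower where called. Of 32, 10 were lower and none was higher, with a median log2 difference of -0.26, and 29 of 32 lay below 0. Msp300, a nesprin of muscle nuclei, was 11.51, 11.27 and 11.36 in Aβ42/TREM2R47H/TYROBP, against 11.72, 11.77 and 11.65 in Aβ42 (log2 -0.33, SE 0.07, adjusted p = 0.00439). Unc-89 (obscurin) was 7.11, 6.80 and 6.95 against 7.56, 7.42 and 7.32, and sls, the titin-type gene sallimus, was 10.21, 9.76 and 10 against 10.46, 10.31 and 10.29. They fell by 0.48 and 0.37 on the log2 scale (adjusted p = 0.007 and 0.0157). Mhc, the muscle myosin heavy chain, was 10.22, 10.03 and 10.11 against 10.41, 10.39 and 10.32 (log2 -0.25, below the fold threshold, but -0.29 and called without Aβ42/TREM2R47H/TYROBP library 1 or Aβ42 library 3). The count depended on single libraries: it was 1 without Aβ42/TREM2R47H/TYROBP library 2, 4 without its library 3, 3 without Aβ42 library 1, 6 without Aβ42 library 3, 6 without RIN in the fit and 2 without the 3 elav-gal4 libraries with high protease genes. Unc-89 and sls did not pass without Aβ42/TREM2R47H/TYROBP library 2 (adjusted p = 0.0512 and 0.127), and sls not without Aβ42 library 1 (0.0732). The summed muscle markers given above moved the same way, and their part was not tested.

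Matrix and cuticle genes were called in both directions. Of 18 basement membrane and matrix genes 4 were lower and 1 was higher. lox2, a lysyl oxidase that crosslinks matrix proteins, was 3.97, 4.14 and 3.91 in Aβ42/TREM2R47H/TYROBP and 4.64, 4.72 and 4.38 in Aβ42 (log2 -0.56, adjusted p = 1.66e-05). LanB2, a laminin chain gene, was 5.58, 5.61 and 5.65 against 5.95, 6.01 and 5.99, and Mmp1, a matrix metalloproteinase gene, was 5.01, 4.82 and 4.96 against 5.39, 5.36 and 5.19. Both had a log2 difference of -0.38 (adjusted p = 3.43e-05 and 0.000596) and no overlap. Of 80 cuticle protein genes 6 were higher and 8 lower, with a median of -0.14, and 3 were higher without Aβ42 library 3. Cpr66D was 0.46, 0.44 and 0.56 against 2.73, 2.68 and 2.06 (4.04-fold lower, adjusted p = 3.95e-09), and Cpr72Ec was 7.13, 7.60 and 7.00 against 8.49, 8.62 and 8.04 (2.18-fold lower, adjusted p = 4.99e-08). resilin, the elastic cuticle protein, was 0.96, 0.95 and 0.93 against 2.79, 3.02 and 2.27 (3.36-fold lower, adjusted p = 3.63e-08). These 3 were also low with the WT construct, with log2 differences from Aβ42 of -1.73, -1.06 and -1.73. Osiris genes had 4 of 20 lower and a median of -0.92, at low levels where only 5 of 20 had a mean of at least 0. Without Aβ42/TREM2R47H/TYROBP library 2 there was 1 higher member.

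Chemosensory genes were called in both directions. Of 43 odorant-binding protein genes, which carry odorants and other small molecules, 5 were higher and 3 were lower (18.6% called). Of 143 odorant, gustatory and ionotropic receptor genes 7 were higher and 5 lower (8.39% called), close to the 6.16% of all genes. Obp56d was 7.90, 7.65 and 8.0 in Aβ42/TREM2R47H/TYROBP, against 7.38, 7.41 and 7.43 in Aβ42 (log2 0.43, adjusted p = 0.000597), and it failed the test without RIN (adjusted p = 0.075) or without the 3 elav-gal4 libraries with high protease genes (0.0849). Obp99d, next to Obp99b on 3R, was 0.63, 0.40 and 0.93 against -0.35, -0.40 and -0.53 (log2 1.07, adjusted p = 0.000327). The odorant receptor gene Or49b was 0.58, 0.87 and 0.60 against -0.98, -0.68 and -0.35 (log2 1.34, adjusted p = 1.48e-06), and Or82a was 1.03, 0.44 and 1.15 against -0.10, -0.31 and -0.09 (log2 1.02, adjusted p = 0.000463). Or82a also exceeded the WT construct (log2 1.25, adjusted p = 0.000156), while Or49b did not pass that test (log2 0.28, adjusted p = 0.447). Obp58d and Or69a were near the bottom of the range in Aβ42/TREM2R47H/TYROBP, at -4.90, -5.66 and -6.31 against -0.55, -2.21 and -0.82 for Obp58d and at -6.51, -5.65 and -4.75 against -2.58, -1.84 and -1.81 for Or69a. The odorant-binding counts were 8 higher without Aβ42/TREM2R47H/TYROBP library 2, 2 higher without RIN, and 2 higher and 1 lower without the 3 elav-gal4 libraries with high protease genes. The receptor counts were 8 lower without Aβ42/TREM2R47H/TYROBP library 1, 4 higher without RIN and 3 lower without those 3 libraries.

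Genes of engulfment and of amyloid breakdown were called at 9.52% and 4.55%, against 6.16% of all genes. Of 21 engulfment and scavenger receptor genes 2 were lower, NimC1 and NimB3, and none was higher. NimB3 was 1.79, 1.85 and 1.87 in Aβ42/TREM2R47H/TYROBP, against 2.25, 2.02 and 2.23 in Aβ42 (log2 -0.34, adjusted p = 0.0357), and without single libraries its adjusted p reached 0.118. The lower count was 0 without Aβ42/TREM2R47H/TYROBP library 1, 1 without its library 3 or any 1 Aβ42 library and 0 without the 3 elav-gal4 libraries with high protease genes, and 1 gene, eater, was higher without Aβ42/TREM2R47H/TYROBP library 1 or Aβ42 library 3. drpr (Draper), the engulfment receptor of glia, was 6.99 in all 3 Aβ42/TREM2R47H/TYROBP libraries, against 7.08, 7.08 and 7.05 in Aβ42 (log2 -0.09, adjusted p = 0.0103, under the fold threshold). ced-6, the gene of an adaptor of that receptor, was 8.41, 8.41 and 8.46 against 8.29, 8.23 and 8.30 (log2 0.15, adjusted p = 0.00327, also under it). Of 22 genes of the neprilysin, insulin-degrading enzyme and ACE families, which can cleave amyloid peptides, 1 was lower, Ance-2, and 2 were lower without Aβ42 library 3 or without the 3 elav-gal4 libraries with high protease genes. None of 9 nicotinic acetylcholine receptor genes was called. Of 35 neuropeptide genes 2 were higher, Ilp3 and Ilp5, and 1 was lower (8.57% called).

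Cytosolic and mitochondrial ribosomal protein genes were called at 3.33% and 4.17%, against 6.16% of all genes, but mostly lay above 0. Of 90 cytosolic ribosomal protein genes 3 were higher (RpS14b, RpL39 and RpL29) and none lower, with a median log2 difference of 0.13 and 82 of 90 above 0. Of 72 mitochondrial ones 3 were higher, with a median of 0.12 and 62 above 0, and mRpL37 was among them with mRpL50 and mRpL48. The cytosolic count was 5 without Aβ42 library 1 and 1 without Aβ42 library 3, and 1 was lower without Aβ42/TREM2R47H/TYROBP library 1. Of 20 autophagy genes 2 were higher, Atg16 and Atg12 (10% called). Atg12 was lost without Aβ42/TREM2R47H/TYROBP library 2 or 3 or Aβ42 library 3.

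The study tied lower genes of these flies to human co-expression modules, and the fly members it listed were looked up again. They were chosen by the study on these same libraries, so their direction is not independent evidence. The fitted log2 difference was above 0 for 5 of 14 members of the inflammatory response list and for 5 of 25 of the locomotion list. The medians of these 2 lists were -0.11 and -0.31. All 4 members of the nucleosome list were lower, namely sr, Gadd45, kay and CG3630, as were 6 of 14 of the inflammatory response list and 15 of 25 of the locomotion list, which holds RyR and tobi. Without Aβ42/TREM2R47H/TYROBP library 2 these counts were 2, 3 and 6, and without the 3 elav-gal4 libraries with high protease genes they were 1, 2 and 6.

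Whether the construct acted differently with and without Aβ42 was tested as an interaction in limma, the difference of Aβ42/TREM2R47H/TYROBP over Aβ42 less that of TREM2R47H/TYROBP over control. The adjusted p was under 0.05 for 96 genes (0.672% of 14279), 74 positive (0.518%) and 22 negative (0.154%), and 1465 genes had an unadjusted p under 0.05. Of the 469 higher DEGs 47 were among them, all positive, and of the 410 lower DEGs 16 were, 15 negative and 1 positive. The positive genes had median log2 differences of 0.37 with Aβ42 and -0.09 without it. The negative genes had -0.54 with Aβ42 and 0.10 without it. The interaction contains the same difference over Aβ42 that defined the DEGs. The signs among the DEGs, and these medians, thus largely follow from how the genes were picked. The count depended on single libraries: it was 58 or 52 without Aβ42/TREM2R47H/TYROBP library 2 or 3, 62 or 61 without Aβ42 library 1 or 2, and 23 without the 3 elav-gal4 libraries with high protease genes. It was 49 without RIN in the fit. In the 18 elav-gal4 libraries alone it was 13.

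Of the 21 genes named in the text that passed, 8 did so under every alternative except the fit on the libraries of the 4 genotypes alone, and each went as follows. CG14879, given above, was 1.06, 1.04 and 1.07 in TREM2R47H/TYROBP and 0.71, 0.30 and 1.00 in control, so the construct added 2.77 with Aβ42 and 0.42 without it. Nap1 was 2.39, 2.48 and 2.37 in TREM2R47H/TYROBP and 1.71, 1.87 and 1.79 in control, with differences of 1.81 and 0.73. CG10924 (Pepck2) was 4.43, 4.56 and 4.52 in TREM2R47H/TYROBP and 4.63, 4.52 and 4.80 in control, so its difference was 1.33 with Aβ42 and -0.24 without it. CG31436 was 5.18, 5.21 and 5.12 and 4.61, 4.61 and 4.62 in those genotypes, a difference of 0.52 against 1.09 with Aβ42. Cpr76Bc, a cuticle protein gene, was 4.21, 4.30 and 4.26 in Aβ42/TREM2R47H/TYROBP, 3.56, 3.57 and 3.35 in Aβ42, 4.16, 3.94 and 4.07 in TREM2R47H/TYROBP and 4.16, 4.30 and 4.27 in control. Only Aβ42 was low among these 4 genotypes. mthl8, a Methuselah-like receptor gene, was 4.72, 4.66 and 4.73 in Aβ42/TREM2R47H/TYROBP, against 5.67, 5.66 and 5.74 in Aβ42, 5.51, 5.68 and 5.71 in TREM2R47H/TYROBP and 5.63, 5.62 and 5.60 in control. It was low in the first of these, with a difference of -0.99 with Aβ42 and -0.02 without it, and it was also low with the WT construct, at 4.83, 4.85 and 4.78. Ac78C, an adenylyl cyclase gene with the human counterpart ADCY8, was 4.84, 4.91 and 4.80 in Aβ42/TREM2R47H/TYROBP, 5.31, 5.32 and 5.46 in Aβ42, 5.02, 5.01 and 5.07 in TREM2R47H/TYROBP and 4.96, 4.86 and 4.88 in control. It was highest in Aβ42. Hsp70Bb, given above with its link to vector sequence, differed by 0.21 with Aβ42 and by 4.12 without it.

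**Figure D4:**
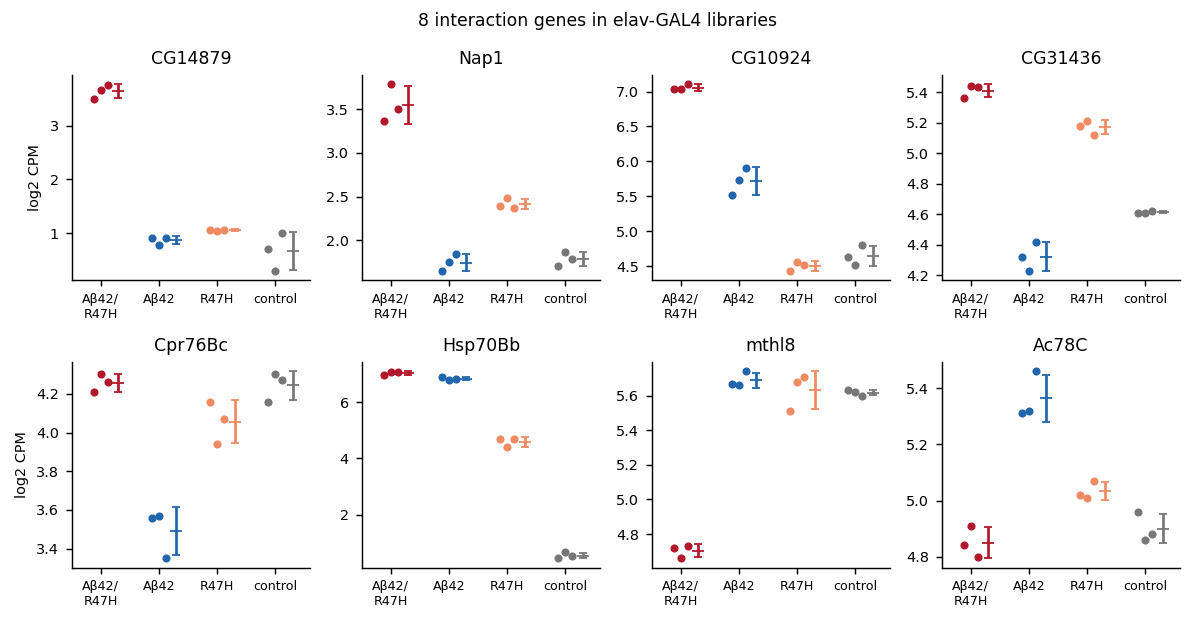
Deposited log2 CPM of the 8 interaction genes in Aβ42/TREM2R47H/TYROBP, Aβ42, TREM2R47H/TYROBP (R47H) and control, with 3 points per genotype and the mean with SD beside them; each panel has its own axis, which does not start at 0. CG14879 and mthl8 depart from the other genotypes shown in Aβ42/TREM2R47H/TYROBP (Aβ42/R47H), Cpr76Bc is low in Aβ42 alone and Hsp70Bb is low in control.

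Other interaction genes passed with less margin. Ilp3 was 2.15, 2.42 and 2.19 in TREM2R47H/TYROBP and 1.84, 1.64 and 1.50 in control, and the fitted interaction of 0.88 (adjusted p = 5.94e-05) was 0.46 (adjusted p = 0.834) without RIN. The RIN values were 7.1, 7.1 and 6.9 in TREM2R47H/TYROBP against 6.8, 6.4 and 6.4 in control. PPO1 was 6.57, 6.52 and 6.51 in TREM2R47H/TYROBP and 6.95, 7.10 and 7.03 in control, where it was the highest of the 4 genotypes, and it was lowest in Aβ42 (interaction 1.14, adjusted p = 0.0321). It did not pass without Aβ42/TREM2R47H/TYROBP library 2 or 3 (0.0929 and 0.0605) or Aβ42 library 1 or 2 (0.065 and 0.0996). JIL-1, the gene of a histone H3 kinase, was 6.76, 6.80 and 6.84 in Aβ42/TREM2R47H/TYROBP, 6.40, 6.46 and 6.37 in Aβ42, 6.17, 6.22 and 6.22 in TREM2R47H/TYROBP and 6.26, 6.35 and 6.39 in control (interaction 0.48, adjusted p = 0.000377). CG4408, a carboxypeptidase gene, was 3.94, 3.55 and 4.40 in Aβ42/TREM2R47H/TYROBP and 5.43, 5.59 and 5.65 in Aβ42. It was 5.61, 5.64 and 5.43 in TREM2R47H/TYROBP and 5.94, 5.92 and 5.79 in control (interaction -1.16, adjusted p = 0.000788). In the 18 elav-gal4 libraries alone its interaction was -0.95 and did not pass (adjusted p = 0.382).

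Set directly against Aβ42/TREM2WT/TYROBP (RIN 7.0, 7.1 and 7.0), the Aβ42/TREM2R47H/TYROBP libraries had 138 higher (0.966%) and 96 lower (0.672%) DEGs, 234 of 14279 or 1.64%. Without Aβ42/TREM2WT/TYROBP library 1 the count was 144, in the elav-gal4 libraries alone it was 134, and in the 6 libraries of the pair alone limma called 0, with 1101 genes at an unadjusted p under 0.05. Of the 469 genes higher than in Aβ42, 96 were also higher than with the WT construct, 1 was lower and 372 were not called. Of the 410 lower genes 37 were also lower than with the WT construct, 2 were higher and 371 were not called. The higher genes had a median log2 difference over Aβ42 of 0.45 with the R47H form and 0.23 with the WT form. The lower genes had -0.57 and -0.37. These genes were picked for their difference with the R47H form, which by itself widens its medians against those of the WT form. The 2 medians share the Aβ42 libraries, and the counts against the WT construct share the Aβ42/TREM2R47H/TYROBP libraries that picked the genes. The strength of the 2 forms therefore cannot be compared from them. The genes that differed included CG15510, CG42592, Desi, mus308, Atg16, the 4 ecdysteroid kinase-like genes, Drsl4, Drsl5 and tobi, whose values are given above. Those that did not pass the test between the forms included y, c-cup, CG12164, Nap1, Cyp6d2, Prx6005, to and resilin, with differences between -0.15 and 0.13. Differences between the forms may come from the variant or from the chromosome that carries the construct, and these cannot be told apart.

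Flies with and without the same construct were also compared in backgrounds that share no library with this pair. An effect of the chromosome that carries the construct can recur in each of them. Calls shared between backgrounds thus cannot tell construct and chromosome apart. TREM2R47H/TYROBP over control on the elav-gal4 driver called 274 higher (1.92%) and 356 lower (2.49%) genes, 4.41% in all, and 306 of the 879 DEGs were called there in the same direction, which is 34.8% of these DEGs and 48.6% of the genes called in that background. None was called in the opposite direction. The shared count was 201 without the 3 elav-gal4 libraries with high protease genes, where that background called 402 genes, and 84 in the elav-gal4 libraries alone, where it called 103 in place of 630. The sign was the same for 88.1% of the 879 DEGs, against 66.3% of all genes. On the GMR-gal4 driver of the eye, TREM2R47H/TYROBP over control shared 297 calls (33.8% of these DEGs and 36.1% of that background's 823, which are 2.83% of genes higher and 2.93% lower or 5.76% in all) with 9 opposite, and the sign was the same for 85.8% against 67.0% of all genes. With tau, tau/TREM2R47H/TYROBP over tau (3 against 2 libraries) called 1.78% of genes higher and 1.7% lower (3.48% in all) and shared 231 (26.3% and 46.5%) with 7 opposite, and the sign was the same for 83.8% against 58.8%.

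**Figure D5:**
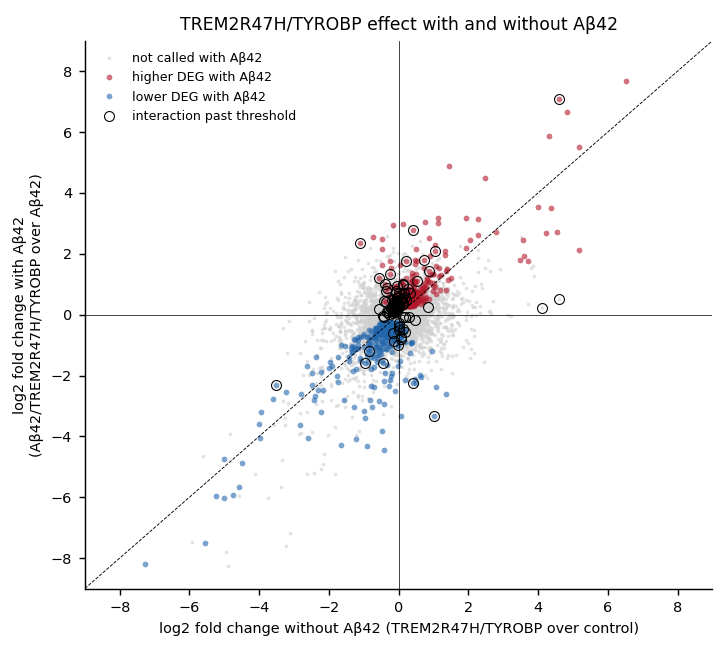
Log2 fold change of Aβ42/TREM2R47H/TYROBP over Aβ42 (vertical axis) against that of TREM2R47H/TYROBP over control (horizontal axis), 1 point per gene, with higher DEGs in red, lower DEGs in blue and the 96 interaction genes circled. The dashed line marks equal change. Of the 879 coloured points 88.1% have the same sign on both axes.

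A total of 132 genes were called in the same direction in all 4 backgrounds, 66 higher and 66 lower. They included y, c-cup, CG15510, CG42592, Desi, Cyp6d2, Cyp6a2, Cyp4p2, Cyp6a14, Prx6005, Nap1, CG31436, CG10553, Tep4, Obp99b, ninaD, mus308 and mRpL37 among the higher genes, and CG12164, Ance-2, Osi1, CG4017, to, CG2650, resilin, Cpr66D, Cpr72Ec, Ugt35b, NimC1 and CG4408 among the lower genes. Tep4, for example, differed by 0.79 with Aβ42, 0.74 over the elav-gal4 control, 0.65 over the GMR-gal4 control and 0.91 with tau, and Cyp6d2 by 2.08, 1.04, 1.00 and 1.07. Drsl4, by contrast, differed by 1.13, 0.37, 1.17 and 1.06, and only the elav-gal4 control value missed the threshold (adjusted p = 0.0975). Ilp3 was a DEG with Aβ42 and had 0.13, 0.14 and 0.04 in the others (adjusted p = 0.361, 0.336 and 0.883). These values depended on RIN: without it in the fit they were 0.59, -0.59 and 0.30 (adjusted p = 0.174, 0.162 and 0.736), and 1.05 with Aβ42 (adjusted p = 0.0126). JIL-1 differed by 0.39 with Aβ42 and by -0.09, -0.10 and -0.02 in the others.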

How the data were processed

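Heads of 1-week-old flies were profiled by RNA sequencing. The authors aligned reads with STAR 2.5.0b to BDGP6, counted them per gene with featureCounts, kept genes with at least 5 reads in 1 or more libraries and adjusted the values for RIN. The table deposited by the authors holds log2 CPM (read counts scaled to library size) of 14279 genes in 35 libraries of 12 genotypes. Raw counts were not analysed here, so depth is unknown. Each genotype has 3 libraries (tau has 2), and the spread was pooled over the 12 genotypes.

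From these values limma 3.58.1 in R 4.3.3 was fitted with genotype and RIN over all 35 libraries (22 residual degrees of freedom). P-values were adjusted by Benjamini-Hochberg over all genes. The deposited values had already been adjusted for RIN over all libraries, so the slope of the covariate was estimated from what remains within genotypes. It still shifts a difference between genotypes whose RIN values differ. Libraries were grouped by their labels. Called members were counted in 58 gene lists, 3 of them from the study, and 45 of 811 listed members were not matched. The genes named were the 12 widest DEGs in each direction without overlap and with a mean of at least 0 in the higher genotype, the widest DEG of any level in each direction, up to 5 members of smallest p in each list, genes the study names, the 3 widest interaction genes of each sign, the 3 DEGs of smallest p in windows of 1000000 bases with 4 or more DEGs, and y, w and the Hsp70 genes. Genes, lists and rules were chosen with earlier results of these data known. The model was run on simulated data of 14279 genes, with independent normal errors and the fitted spread of each gene, equal in all libraries. The assumptions of the model thus held by construction, so the simulation checks the procedure and does not give the error rate of the real calls. For Aβ42/TREM2R47H/TYROBP against Aβ42 it recovered 65.7%, 70.1% and 90.9% of genes changed by 0.5, 1 and 2 on the log2 scale, and 3.82% of its calls were false. Alternatives covered RIN, the libraries fitted, filters, a pseudocount, normalization, a replicate block, the variance prior, thresholds and single libraries. Leaving out the 3 elav-gal4 libraries with high protease genes, which keeps 1 Aβ42 library, was chosen after seeing the data. Figures were drawn with matplotlib 3.10.9.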

Additional observations from a re-analysis of the deposited data

Results flagged for a closer look

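The effect of TREM2R47H/TYROBP differed between flies with and without Aβ42, by the limma interaction test, for 96 genes at an adjusted p under 0.05. Of the genes described above 21 were among them, and their interaction values (log2, the effect with Aβ42 less the effect without it) are given here.

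The positive values were 2.48 for c-cup (adjusted p = 0.0278), 2.35 for CG14879 (3.5e-06), 1.58 for CG10924 (2.19e-05), 1.2 for to (0.034), 1.14 for PPO1 (0.0321), 1.09 for Nap1 (1.2e-05), 1.03 for Cyp6d2 (0.00757), 0.88 for Ilp3 (5.94e-05), 0.83 for Cpr76Bc (0.000377), 0.57 for CG31436 (0.00113), 0.56 for CG10553 (0.0223), 0.48 for JIL-1 (0.000377), 0.38 for Atg16 (0.00364) and 0.26 for inaD (0.034). For to the positive value means a smaller decrease with Aβ42 (-2.32) than without it (-3.52).

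The negative values were -3.91 for Hsp70Bb (adjusted p = 6.31e-18), -1.16 for CG4408 (0.000788), -0.97 for mthl8 (3.5e-06), -0.80 for tobi (0.0471), -0.73 for fit (0.0321), -0.54 for Ac78C (0.000147) and -0.46 for Cyp6a23 (0.00496).

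Of these 21 genes 13 did not pass under at least 1 alternative other than the fit on the libraries compared. In the 18 elav-gal4 libraries alone 10 did not pass, with adjusted p from 0.0733 (tobi) to 0.484 (PPO1). The others were Cyp6d2, Cyp6a23, CG10553, Ilp3, fit, to, inaD and CG4408. The c-cup value rests on levels near the lowest in Aβ42, and it was 0.37 (adjusted p = 0.402) when 1 was added to the linear value before the log, while without Aβ42/TREM2R47H/TYROBP library 1 or 3 or Aβ42 library 2 its adjusted p was 0.0612 to 0.088. tobi did not pass without any 1 of the 6 libraries compared (adjusted p 0.0641 to 0.113). Without RIN in the fit, 7 genes did not pass besides tobi (0.0535): fit (-1.54, adjusted p = 0.565), to (0.83, 0.611), inaD (0.23, 0.173), Ilp3 (0.46, 0.834), CG10553 (0.38, 0.634), Cyp6a23 (-0.64, 0.126) and Atg16 (0.29, 0.39). Without single libraries adjusted p reached 0.0913 for fit, 0.104 for to, 0.0995 for inaD and 0.0648 for CG10553. Hsp70Bb is from a family whose promoter sequence transgene vectors can carry, and its level was low in control, which has no UAS or LexAop construct.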

How the results depend on the processing

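The count of 879 DEGs was 84 when only the 6 libraries compared were fitted, 204 with a log2 threshold of 1, 1815 with adjusted p alone and 584 without the 3 elav-gal4 libraries with high protease genes (chosen after seeing the data, with Aβ42 library 2 alone in its genotype and its spread taken from the other genotypes), and it was 703 to 937 when each library of the pair was left out. The 469 higher DEGs became 45, 85 and 980 under the first 3 of these and 397 to 506 without single libraries. The 410 lower DEGs became 39, 119, 835 and 254, and 295 to 446. The 234 DEGs against Aβ42/TREM2WT/TYROBP were 134 in the elav-gal4 libraries, 0 in the 6 libraries compared (1101 genes had an unadjusted p under 0.05 in limma), 69 with a log2 threshold of 1, 362 with adjusted p alone and 144 to 226 without single libraries. The 96 interaction genes were 49 without RIN, 13 in the elav-gal4 libraries, 3 in the libraries compared, 54 with each library centred on its median, 23 without those 3 libraries and 52 to 76 without single libraries. The fits on fewer libraries have fewer residual degrees of freedom, and other causes were not tested. The difference in w was 0.02 and became -0.01 with quantile normalization, with centring and without those 3 libraries.

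Of 94 called genes described, 22 were called under every alternative run and 71 under all except the fit on the 6 libraries compared. Of 1184 alternative values of the list counts 1015 stayed within 1.5 times and 169 did not, 44 of these in that fit.

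Residuals of same-numbered libraries correlated at 0.0825, -0.0173 and -0.2 over genes, within the range of differently numbered ones (-0.218 to 0.207). Residuals cancel within each genotype, so these values cannot decide whether replicate numbers pair the libraries. With the replicate number as a block within each driver the counts were 834 DEGs, 211 against Aβ42/TREM2WT/TYROBP and 56 interaction genes.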
